A study of Mus musculus with 11 samples.

Results

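The genes described here are 10 immediate early genes, Fos, Fosb, Fosl2, Jun, Junb, Jund, Egr1, Egr2, Ier2 and Arc, in cultured neural stem cells (NSCs) of the mouse hippocampus. They were chosen by name as the AP-1 and Egr genes that cells switch on first after a stimulus. Earlier results of these data were known when they were chosen. Each symbol was matched to 1 gene identifier. All 10 of the 53801 genes listed were found in all 11 libraries, and all 10 passed the filter on low counts that 15920 genes passed.

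Immediate early genes are transcribed within minutes of growth factor, depolarisation or stress signals, without any need for new protein. Growth factors reach them through the ERK cascade, which acts on ternary complex factors bound together with SRF at CArG boxes, while cAMP and calcium act through CREB. Fos and Jun proteins pair through leucine zippers to form AP-1, which binds DNA as a dimer. Fos proteins cannot pair with each other, so that each AP-1 dimer with a Fos protein also holds a Jun protein. Egr proteins bind GC-rich sites with zinc fingers, and their mRNAs, like those of Fos and Jun, are short-lived. In neurons, Arc carries activity signals to the synapse, where it controls the removal of glutamate receptors.

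Primary hippocampal NSCs received either 1 µM 4HBP or its ethanol vehicle (control) over 7 days, and their RNA was sequenced. The compound is called 4-hydroxybenzophenone in the study's text and 4-hydroxybenzoic acid in the sample labels. Proliferation medium (3 libraries with 4HBP, 3 control libraries) held 1% B27 and the growth factors EGF and bFGF, each at 20 ng/ml. Differentiation medium (3 libraries with 4HBP, 2 control libraries) held no EGF or bFGF and 2% B27. The labels give no genotype, strain or age, and do not say whether libraries of a group came from separate cultures or animals, so that p-values measure the spread between these libraries, which may be technical.

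The libraries held from 20822921 up to 23438463 expected counts each, and 3 counts in a library, taken as the least detectable amount, correspond to 0.128 to 0.144 CPM, the expected counts scaled to the library total. This floor covers counting error only. Replicate 3 of the 4HBP cultures in proliferation medium stood apart from the others of its group (mean chi-square per gene of 24.4 and 22 against them, and 5.41 between them). The values of the members that it moved most are given with and without it. All 5 NSC markers examined (Nes, Sox2, Pax6, Hes5, Fabp7) were above the floor, with a summed level of 2009 to 2663 TPM (a level scaled to gene length and library size) in proliferation medium and 1274 to 1532 TPM in differentiation medium. Markers of leukocytes summed to at most 1.61 TPM. The 4 endothelial markers summed to 2.29 to 3.79 TPM in proliferation and 0.59 to 0.9 TPM in differentiation medium. Of these, Cldn5 and Cdh5 were at or under the floor in every group. The 5 markers of fibroblasts and mural cells summed to 0.66 to 1.25 TPM in proliferation and 8.98 to 10.7 TPM in differentiation medium.

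The promoters of the members are shown first, as a description. The part of these sequences in the results below was not tested. RefSeq promoter windows (GRCm38.p6, 250 bases before to 50 bases after the start) were at hand for 7 of the members, Fos, Fosb, Fosl2, Jun, Junb, Jund and Egr2. They were searched for TATAAA on the transcribed strand and, on both strands, for the CRE (TGACGTCA), the AP-1 site (TGANTCA), an Egr site (GCGNGGGCG) and the CArG box. The stretches with a match in Fos (chr12:85473817-85473884, plus strand), Junb (chr8:84978743-84978802, minus strand), Fosb (chr7:19310056-19310115, minus strand) and Egr2 (chr10:67537484-67537513 and chr10:67537787-67537816, plus strand) read as follows, with the matching word in capitals.
Fos: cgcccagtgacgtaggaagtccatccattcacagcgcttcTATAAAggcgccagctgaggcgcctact
Junb: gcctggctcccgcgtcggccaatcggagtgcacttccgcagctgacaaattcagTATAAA
Fosb: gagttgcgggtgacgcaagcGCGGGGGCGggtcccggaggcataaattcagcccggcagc
Egr2 upstream: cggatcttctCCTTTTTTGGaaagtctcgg
Egr2 downstream: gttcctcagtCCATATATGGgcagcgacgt

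TATAAA lies 33 bases upstream of the RefSeq start of Fos. In Junb it begins at the RefSeq start itself, which is 30 bases upstream of the GENCODE start, and 8.32% of the 32851 promoter windows hold that word. The Egr site of Fosb lies 50 bases upstream of its RefSeq start; Fosl2 holds one as well, and so do 5.55% of all windows. Each of the 2 CArG boxes of Egr2 lies 72 bases upstream of an annotated start of that gene, and 1.63% of windows hold a CArG box. No member's window held the CRE or AP-1 words as written, which 1.79% and 7.81% of windows hold. Jun and Jund had none of the 5 words in these windows.

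The genes themselves are compact. Jun, Junb, Jund and Ier2 have 1 exon and no intron, Egr1 and Egr2 have 2 exons, Arc has 3, and Fos, Fosb and Fosl2 have 4. Gene lengths ran from 1522 bases for Ier2 to 22042 bases for Fosl2, against a median of 25523 bases over 13313 tested coding genes. ATTTA, the core word of AU-rich elements that shorten mRNA life, occurred 4 times in the 3 prime UTR of Fos, a density of 4.91 per kb that 6.86% of the tested genes reach. Junb carried 2 such words at 4.12 per kb and Jun 4 at 3.24 per kb, whereas Ier2 and Arc carried 0 and the median gene 1. On GRCm38, Fos spans chr12:85473890-85477273, Jun chr4:95049034-95052222, Junb chr8:84974484-84978718 and Jund chr8:70698949-70700616. Another gene lies on the opposite strand of Jun (the antisense RNA Junos), of Junb (the coding gene Prdx2) and of Jund (the antisense RNA Gm11175). The library kit keeps the strand, but the sources used here do not state whether the counting used it.

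Per length, Jund, Fos, Jun and Egr1 were the most abundant members in control cultures in proliferation medium, and Fosb and Arc the least. In these cultures, mean TPM was 95.6 ± 8.89 (SD, n = 3) for Jund, 75 ± 2.83 for Fos, 49.9 ± 5.17 for Jun and 33.9 ± 7.6 for Egr1. Junb (13.3 ± 3.48 TPM), Ier2 (11.5 ± 2.88 TPM) and Fosl2 (8.92 ± 3.47 TPM) followed, and their ranges overlapped. Egr2 stood at 1.46 ± 0.313 TPM, and Fosb (0.89 ± 0.291 TPM) and Arc (0.547 ± 0.235 TPM) did not differ beyond their spread. In the differentiation controls, Arc stood at a mean of 7.99 TPM, above Junb (4.7 TPM), Fosl2 (3.56 TPM) and Egr2 (2.36 TPM).

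Within each family the mRNA was shared unequally. Fos held 79.7% to 91% of the TPM of the Fos family (Fos, Fosb, Fosl1 and Fosl2) over all 11 libraries, and Fosb at most 2.19%. Jund, the Jun gene that is usually the most constant, held 54.2% to 63.5% of the Jun family in control cultures and 44.3% to 49% with 4HBP in proliferation medium. Junb, a growth-factor-responsive Jun gene, held 6.62% to 10.9% and 14.6% to 22.9% in the same cultures. In differentiation medium, Junb held between 2.71% and 3.03% of the Jun family in all 5 libraries. The summed Jun family level stayed within 146 to 174 TPM, while the summed Fos family level was 83.5 to 131 TPM in proliferation medium and 29.3 to 38.6 TPM in differentiation medium.

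**Figure D1:**
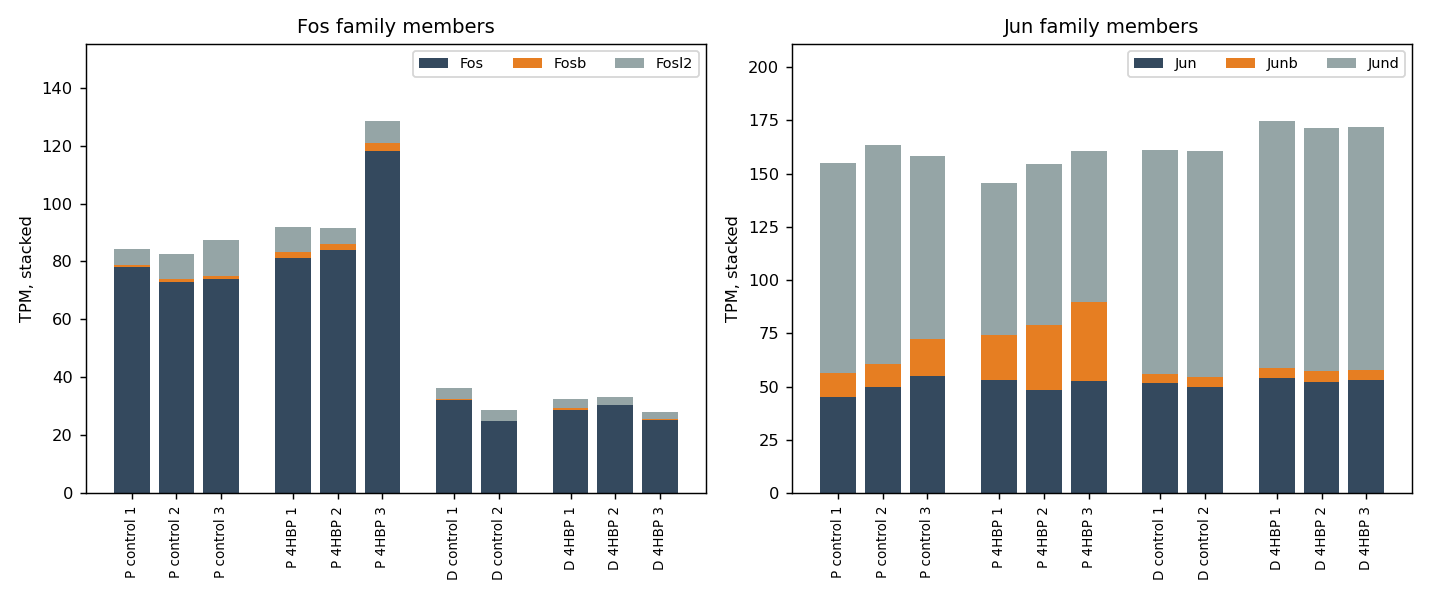
Stacked TPM of the Fos family members (left; Fosl1 is not drawn) and of the Jun family members (right) in each of the 11 libraries, with P for proliferation and D for differentiation medium. The Junb part of the Jun bars is widest in the 3 proliferation libraries with 4HBP (14.6% to 22.9% of the family), and the Fos bars are shorter in all 5 differentiation libraries.

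The comparison of 4HBP with vehicle in proliferation medium asks what the compound does to NSCs held in cycle by growth factors. Of the 10 members, Egr1, Egr2, Fosb and Junb rose and Jund fell (edgeR quasi-likelihood test, Benjamini-Hochberg adjusted p under 0.05 over all genes). Of all 15920 genes tested, 3.4% were called higher and 3.12% lower. Jun showed no change that the test could detect, and Fos, Ier2, Fosl2 and Arc were not called. The median log2 fold change of the members was 0.70, beside 0.00 over all genes. In bulk RNA of a mixed culture, fewer cells of a type and less RNA per cell cannot be told apart.

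Egr1, a zinc finger factor induced by growth factors through SRF, had 202, 229 and 181 CPM with 4HBP against 91.7, 61.5 and 75.7 CPM in control libraries. Every 4HBP library was thus above every control library. The share of all genes that separate like this is not given, so that here and below such separation only describes the libraries. The difference was 2.62-fold, a log2 fold change of 1.39 ± 0.14 (SE; 95% interval 1.07 to 1.72; adjusted p = 0.00283). Egr1 was the member whose call held in all 6 fits that left out 1 library, with log2 fold changes of 1.26 to 1.53.

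Egr2, a related factor known from myelinating glia, had 5.11, 4.66 and 19.2 CPM with 4HBP and 1.91, 1.33 and 1.62 CPM in control libraries. The groups did not overlap, but replicate 3 was far above the other 4HBP libraries. The log2 fold change was 2.52 ± 0.52 (adjusted p = 0.0255). Without that replicate it was 1.58, with an adjusted p of 0.00489. Leaving out any 1 of the 3 control libraries ended the call of Egr2 (adjusted p of 0.105, 0.123 and 0.0703 without control replicates 1, 2 and 3).

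Junb, which as a partner of Fos is a weaker activator than Jun, had 26.2, 37 and 43.4 CPM with 4HBP against 14, 13.1 and 21 CPM. All 4HBP libraries were above all controls, at 2.15-fold (log2 1.11 ± 0.20, adjusted p = 0.0168). Its call ended without control replicate 1 (adjusted p = 0.0944), control replicate 2 (0.0902) or 4HBP replicate 2 (0.057). The overlapping Prdx2, a peroxiredoxin, did not follow Junb, with a log2 fold change of -0.10 (adjusted p = 0.484).

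Fosb, a Fos family member whose protein persists in stimulated neurons, was scarce, with 5.82, 4.95 and 7.39 CPM against 1.48, 2.95 and 2.67 CPM, or 104 to 154 against 31 to 62 expected counts. The libraries separated, and the difference was 2.49-fold (log2 1.31 ± 0.26, adjusted p = 0.0224). Jund moved the other way, from 107, 114 and 95.3 CPM in control libraries to 80.1, 83.7 and 76.7 CPM, again without overlap (log2 -0.43 ± 0.09, adjusted p = 0.0258). The call of Fosb ended without control replicate 1 (adjusted p = 0.0782) or 2 (0.0612), and that of Jund in 4 of the 6 fits, without control replicates 1 (0.107) and 2 (0.12) and 4HBP replicates 1 (0.0522) and 2 (0.0559).

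Fos, the first of these genes to respond in most cells, was at 89.4, 89 and 122 CPM with 4HBP and 76, 75.6 and 71.9 CPM without it. The libraries did not overlap, yet the log2 fold change of 0.39 ± 0.10 did not pass (adjusted p = 0.0553). Ier2, a nuclear protein induced by the same stimuli, had 17.8, 20.4 and 16.6 CPM against 12.7, 8.14 and 13.4 CPM, and also missed the threshold (log2 0.65 ± 0.18, adjusted p = 0.0633). Leaving out 4HBP replicate 3 brought both Fos (log2 0.25, adjusted p = 0.044) and Ier2 (0.74, 0.0376) past the threshold, and 7 members were then called.

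Jun was at 121, 109 and 116 CPM against 99.2, 112 and 125 CPM, and the 95% interval of its log2 fold change ran from -0.21 to 0.23. Fosl2 (27.1, 19 and 25.8 against 18.2, 30.5 and 40.3 CPM) varied more between control libraries than between treatments, with an interval of -0.90 to 0.22. Arc was near the lower end of what could be measured, at 1.61, 2.38 and 2.11 against 0.621, 1.29 and 1.62 CPM (interval -0.04 to 1.54).

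**Figure D2:**
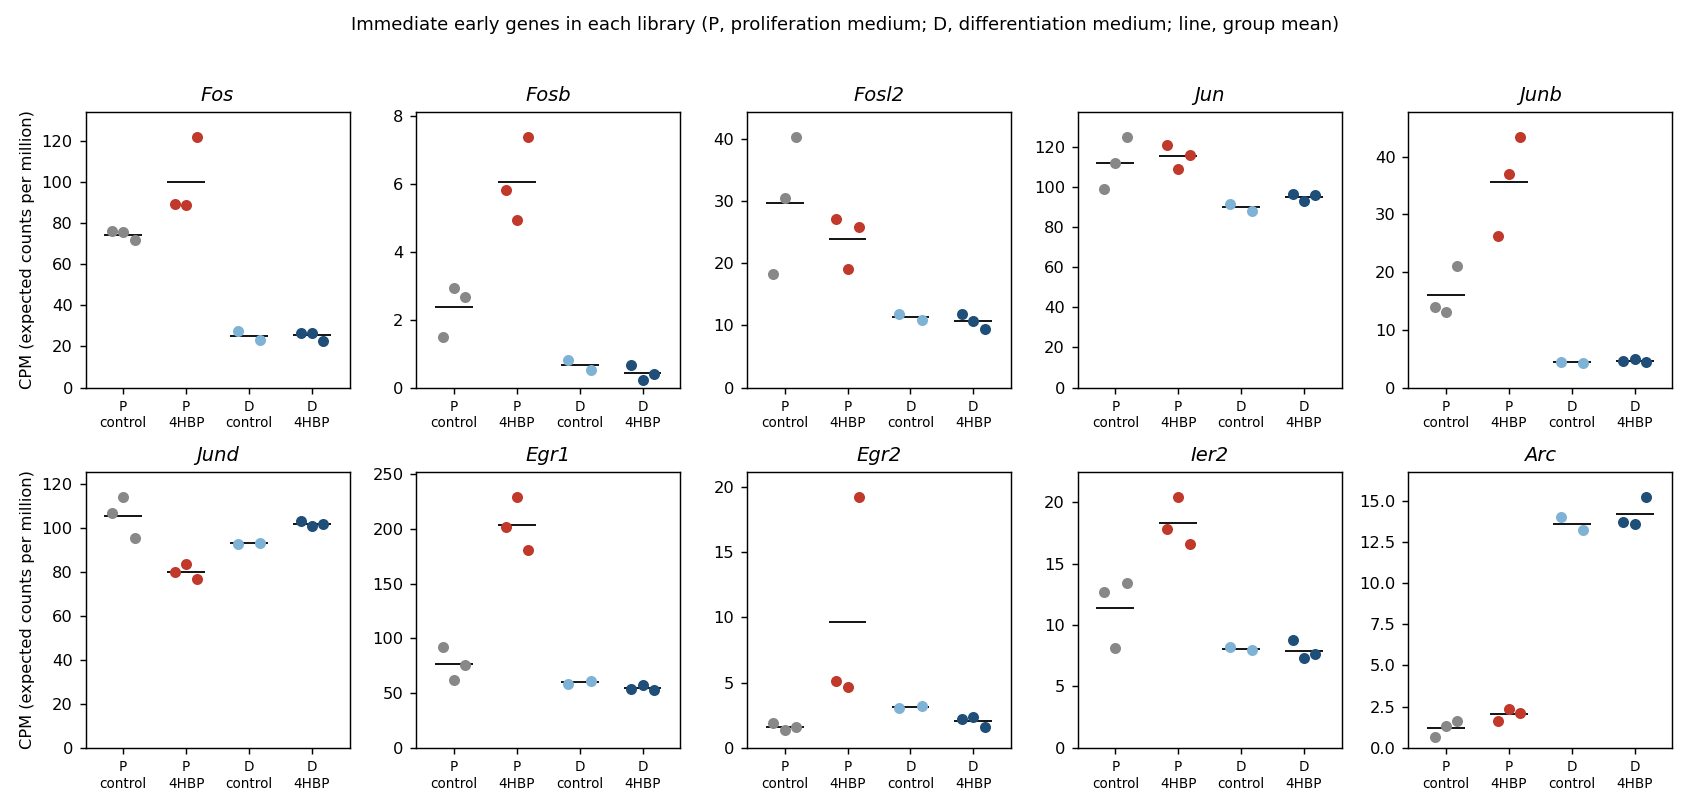
CPM of each member in every library (points) with the group mean (line); P, proliferation medium, D, differentiation medium. Egr1 stands at 181 to 229 CPM in the 3 proliferation libraries with 4HBP and at 53 to 91.7 CPM in the other 8, and all 5 differentiation libraries of Arc lie above its proliferation libraries.

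The number of members called depended on the control libraries. It was 1, Egr1 alone, without control replicate 1 or without control replicate 2, between 3 and 7 in the other 4 fits that left out a library, and 5 with the replicate numbers as a block. Over all genes, the fits that left out a library called 115 to 1277 and the block 559. With limma on log2(CPM+1), the method of the study, no member had an adjusted p under 0.05, beside 67 genes that did. The study itself used an unadjusted p under 0.05 with an absolute log2 fold change above 0.58. At an unadjusted p under 0.05 and with no minimum fold, limma gave 7 members, beside 3997 of 27295 genes. At that threshold edgeR also gave 7 members, beside 3706 of 15920 genes. DESeq2 called 7 members after adjustment, beside 1605 genes. In the 4HBP cultures the summed level of the 6 astrocyte markers was 1556 to 2010 TPM, below the 2282 to 2845 TPM of the controls, and that of the 6 oligodendrocyte lineage markers was 1215 to 1919 TPM against 1745 to 2226 TPM. The NSC markers summed to 2009 to 2288 TPM against 2412 to 2663 TPM, and the neuronal markers to 418 to 436 TPM against 421 to 490 TPM. Each of these sums followed 1 abundant gene, Fabp7 (mean 1703 against 2124 TPM) and Map2 (352 against 391 TPM), while mean Nes (150 against 119 TPM) and Tubb3 (42.9 against 38.1 TPM) were not lower. The part of these markers in the result was not tested.

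**Figure D3:**
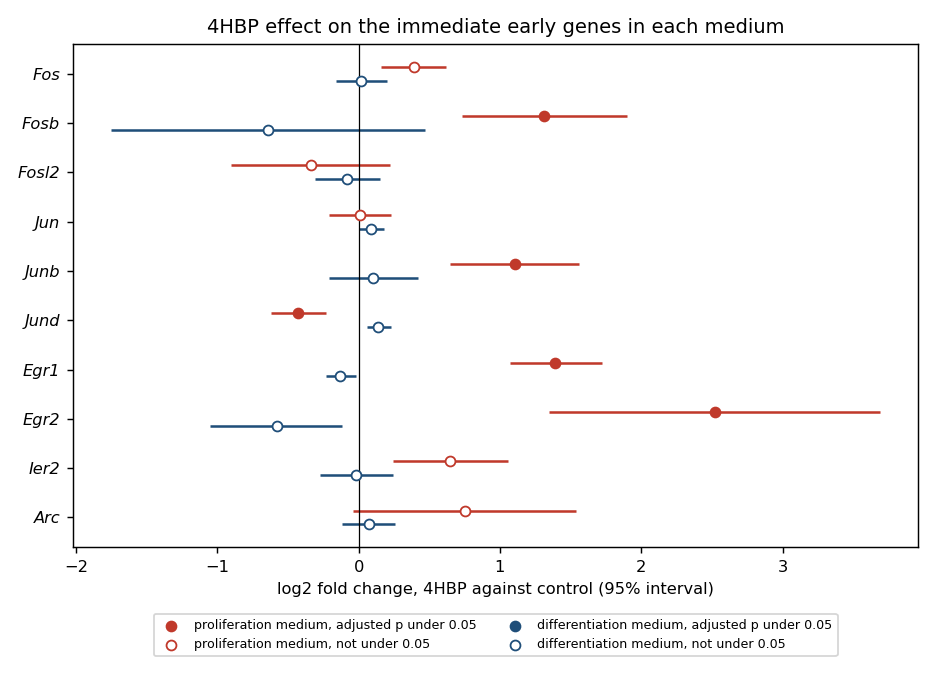
Log2 fold change of each member, 4HBP against control, with its 95% interval (lines) in proliferation medium (red) and differentiation medium (blue); filled points have an adjusted p under 0.05. In proliferation medium 5 members are filled, from -0.43 for Jund to 2.52 for Egr2, and in differentiation medium none is.

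Other immediate early genes were examined as a list of 36, all tested. In proliferation medium 7 rose with 4HBP and 0 fell, beside 3.4% of all genes called higher and 3.12% called lower. The list median was 0.21. The largest rises were those of Egr3 (log2 1.90, adjusted p = 0.0127), a further Egr factor, of Ier3 (1.14, 0.0362), which acts in cell survival, and of Bdnf (1.06, 0.0314), a neurotrophin. Egr3 had 3.08, 5.52 and 4.17 CPM with 4HBP and 1.24, 0.666 and 1.43 CPM without it, so that the groups did not overlap. Ier3 had 6.77, 8.28 and 14.8 CPM against 4.39, 3.62 and 5.11 CPM, the highest in 4HBP replicate 3. Nr4a1, Plk2, Zfp36 and Klf6 were the other 4 called. With 1 library left out, the list held between 0 and 8 higher calls, the lowest being without control replicate 1 or 2 and 3 without 4HBP replicate 2. Without 4HBP replicate 3 it held 8 higher and 1 lower call.

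**Figure D4:**
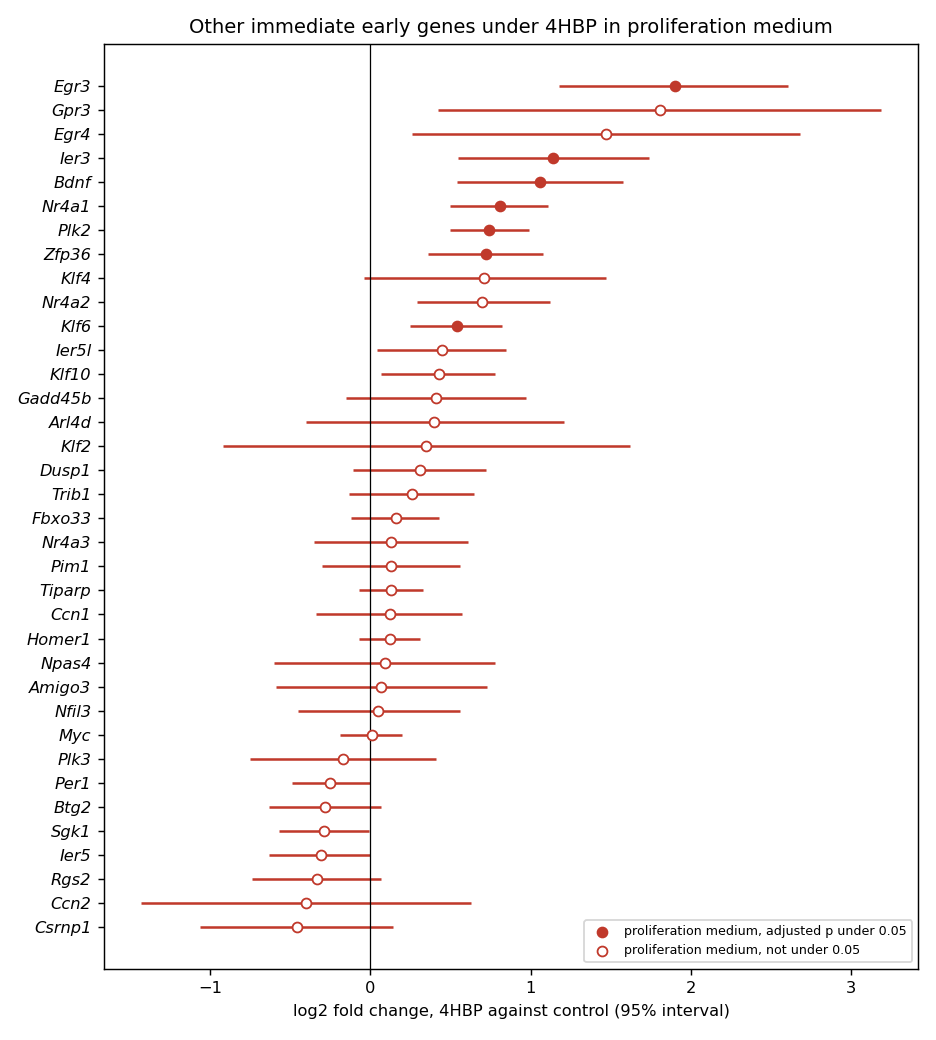
Log2 fold change of the 36 other immediate early genes, 4HBP against control in proliferation medium, with 95% intervals (lines); filled points have an adjusted p under 0.05. The 7 filled genes lie between 0.54 (Klf6) and 1.90 (Egr3), and most of the other intervals include 0.

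Genes that act upstream of the members or feed back on them were examined next, beside the same 3.4% of all genes higher and 3.12% lower. Among 18 upstream kinases and factors, 2 rose, the SRF coactivator gene Mrtfb (log2 0.51, adjusted p = 0.00704) and the ternary complex factor gene Elk3 (0.39, 0.0324), and 0 fell. Of 9 tested feedback and mRNA decay genes, the ERK phosphatase gene Dusp6 (1.24, 0.00336) and Zfp36 (0.72, 0.0326), whose protein speeds the decay of AU-rich mRNAs, rose. Dusp6 had 29.4, 33.8 and 31.3 CPM with 4HBP against 14.1, 10.3 and 14.7 CPM. The median log2 fold change was 0.05 for the upstream list and 0.31 for the feedback list. With a library left out, the upstream list held 0 to 2 higher calls, 0 without control replicate 1 and 1 without control replicate 2, 4HBP replicate 1 or 4HBP replicate 2. The feedback list held 1 to 3, with 1 without control replicate 1, control replicate 2 or 4HBP replicate 2. Both held 2 without 4HBP replicate 3. None of 11 tested AP-1 and bZIP partners was called.

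Targets, neuronal activity genes and heat shock genes were examined in the same way, beside the 3.4% of all genes called higher and 3.12% called lower. Among 9 tested AP-1 target genes, 2 were called higher and 1 lower, the lower call being lost in each of the 6 fits that left out a library. Hmox1, for heme oxygenase, rose (log2 0.92, adjusted p = 0.0103), and the chemokine gene Ccl2 was called higher (adjusted p = 0.0235). Ccl2 had at most 0.143 CPM in any control library, at or under 3 counts, so that no fold is given; the 4HBP libraries had 0.994, 0.571 and 2.88 CPM. Of 11 tested neuronal activity genes, Egr3, Bdnf and Nr4a1 (0.81, 0.0129) rose, all of which are also on the list of 36. Of 7 heat shock genes, Hspa8 rose (0.56, 0.0135) and 0 fell. Without control replicate 1 or 2, no gene of the target, neuronal activity and heat shock lists was called, and without 4HBP replicate 3 they held 3, 3 and 1 higher calls. The part of handling stress in the result was not tested.

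The same treatment was compared in differentiation medium, where the growth factors were absent. None of the 10 members was called by edgeR, beside 1.19% of all genes higher and 1.12% lower. At an unadjusted p under 0.05, edgeR gave 4 members, Jun, Jund, Egr1 and Egr2, beside 2489 of 15920 genes. At that threshold limma gave 4 members, beside 3117 of 27295 genes, and DESeq2 gave 1, beside 1367 genes. Neither limma nor DESeq2 called a member after adjustment. The median log2 fold change of the members was 0.00, as over all genes.

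Libraries agreed closely in this medium. Egr1 was at 53.4, 56.9 and 53 CPM with 4HBP and at 58.2 and 61.3 CPM in control libraries. The 4HBP libraries were lower, but the interval of the log2 fold change, -0.23 to -0.02, lay outside the rise of 1.07 to 1.72 measured in proliferation medium. Egr2 was at 2.24, 2.37 and 1.58 CPM against 3.06 and 3.2 CPM (log2 -0.58 ± 0.22, adjusted p = 0.202). Jund was at 103, 101 and 102 CPM against 92.9 and 93.1 CPM, the lowest adjusted p of the members (0.0785), with a log2 fold change of 0.14 ± 0.04.

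For the remaining AP-1 genes the groups overlapped, apart from Jun. Fos had 26.7, 26.7 and 22.6 CPM against 27.3 and 23.1 CPM, and the interval of its log2 fold change was -0.16 to 0.20. Junb was at 4.65, 4.87 and 4.37 CPM against 4.38 and 4.31 CPM (interval -0.21 to 0.42). Fosb, at 0.671, 0.216 and 0.384 CPM against 0.821 and 0.512 CPM, rested on 5 to 18 counts, and its interval was wide (-1.75 to 0.47). Jun had 96.6, 93.2 and 95.9 against 91.8 and 87.9 CPM, Fosl2 11.8, 10.7 and 9.41 against 11.8 and 10.9 CPM, Ier2 8.81, 7.29 and 7.64 against 8.17 and 7.94 CPM, and Arc 13.7, 13.6 and 15.2 against 14 and 13.2 CPM.

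The lists showed a few small decreases in this medium, where 1.19% of all genes were called higher and 1.12% lower. Ccn2, a matricellular immediate early gene, fell (log2 -0.66, adjusted p = 0.00105), as did Dusp6 (-0.30, 0.0171) and the cyclin gene Ccnd1 (-0.18, 0.0434). These were the 1 call among 36 other immediate early genes, the 1 among 9 feedback genes and the 1 among 9 target genes, and Ccnd1 was not called in any of the 5 fits that left out a library. Among the feedback genes 1 gene was called in 1 of these fits, the one without 4HBP replicate 3, and among the other immediate early genes 1 in 4, with 0 without control replicate 1. No gene was called among the AP-1 partners, the upstream factors, the neuronal activity genes or the heat shock genes.

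Whether 4HBP acted differently in the 2 media was tested as the difference of the effects in 1 fit of all 11 libraries. That fit shares 1 spread per gene between the media, although the spread differed between them. Egr1 and Egr2 had a higher effect in proliferation medium and Jund a lower one, beside 2.01% of all genes higher and 2.48% lower. The difference was 1.51 ± 0.18 on the log2 scale for Egr1 (adjusted p = 0.00183), 3.10 ± 0.71 for Egr2 (0.0287) and -0.58 ± 0.10 for Jund (0.0106). Junb (1.00 ± 0.31, 0.0942) and Fosb (1.94 ± 0.59, 0.0853) were not called, although each rose in proliferation medium and not in differentiation medium, so that a difference between media was not shown for them. The remaining members had adjusted p of 0.161 to 0.73.

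Egr1 was called in all 11 fits that left out a library, with differences of 1.38 to 1.65. Jund was called in 9, the exceptions being the fits without either differentiation control library (adjusted p of 0.0787 and 0.0604). Egr2 was called in 4, and the range of its difference was 2.17 to 3.41. The fit without 4HBP replicate 3 in proliferation medium gave 2.17 for Egr2 with an adjusted p of 0.00134. Egr2 was lost without proliferation control replicates 1 (0.0616) and 2 (0.0732), without differentiation 4HBP replicates 1 (0.0699), 2 (0.0637) and 3 (0.0809) and without differentiation control replicates 1 (0.11) and 2 (0.124).

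From the lists, 5 other immediate early genes had a higher effect in proliferation medium, led by Egr3 (difference 3.05, adjusted p = 0.00532), Bdnf (1.31, 0.0258) and Nr4a1 (0.86, 0.031), which are also the 3 calls among the neuronal activity genes. Dusp6 differed by 1.53 (0.000592), and Mrtfb (0.53, 0.00744), Hmox1 (0.86, 0.0243) and Hspa8 (0.47, 0.0249) were the single calls of their lists. No AP-1 partner was called. Of all genes, 2.01% were called higher and 2.48% lower. With a library left out, the other immediate early genes held 1 to 8 higher calls, the lowest without differentiation control replicate 1, and the neuronal activity genes 1 to 3.

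The media themselves were compared first in control cultures, which share their libraries with the comparisons above. In differentiation medium 8 members had lower levels and Arc a higher level, whereas Egr2 was not called. The media differ in EGF, bFGF and B27, and the parts of these cannot be told apart. As 30.8% of all genes were called higher and 30.6% lower in this comparison, calls as such were common. The median log2 fold change of the members was -0.51, beside 0.03 over all genes.

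Fos had 27.3 and 23.1 CPM in differentiation medium against 76, 75.6 and 71.9 CPM, a 3.14-fold decrease (log2 -1.65 ± 0.12, adjusted p = 1.78e-07). Junb fell 3.92-fold, from 14, 13.1 and 21 CPM to 4.38 and 4.31 CPM (log2 -1.97 ± 0.24, adjusted p = 1.14e-05). Fosb fell by 1.92 ± 0.41 and Fosl2 by 1.48 ± 0.27 on the log2 scale (adjusted p = 0.00128 and 0.00035). All proliferation libraries of these 4 genes were above all differentiation libraries, which is a description only, as the share of all genes that separate like this is not given.

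Jun (log2 -0.41 ± 0.09, adjusted p = 0.00179) and Jund (-0.27 ± 0.08, 0.00924) fell less, as did Egr1 (-0.44 ± 0.14, 0.0154) and Ier2 (-0.59 ± 0.19, 0.0163). The control libraries of Ier2 overlapped between media, since 1 proliferation library (8.14 CPM) lay among the differentiation libraries (8.17 and 7.94 CPM). Egr2 was the other way round, with 3.06 and 3.2 CPM against 1.91, 1.33 and 1.62 CPM, and did not pass (log2 0.86 ± 0.55, adjusted p = 0.193). Without differentiation control replicate 1, the calls of Jund (adjusted p = 0.0633) and Egr1 (0.1) ended, that of Egr1 also ended without proliferation control replicate 1 (0.066), and Ier2 was called in 1 of 5 fits that left out a library.

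Arc rose 10.8-fold, from 0.621, 1.29 and 1.62 CPM to 14 and 13.2 CPM (log2 3.43 ± 0.24, adjusted p = 7.96e-08), and its call held in all 5 such fits. The summed level of the 7 neuronal markers was 469 to 482 TPM in the differentiation controls and 421 to 490 TPM in the proliferation controls, but most of that sum was Map2 (mean 351 against 391 TPM). The mean levels of the other 6 were higher in the differentiation controls, among them Snap25 (11.1 against 2.87 TPM), Tubb3 (64.4 against 38.1 TPM) and Dcx (39.9 against 22.5 TPM). Over the same cultures, the oligodendrocyte lineage markers went from 1745 to 2226 TPM up to 5728 to 6125 TPM, and the astrocyte markers from 2282 to 2845 TPM up to 3221 to 3395 TPM. The part of the cell types in the difference between media was not tested.

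The same comparison in cultures with 4HBP used separate libraries. All 10 members were called, 8 lower and 2 higher, beside 33.3% of all genes higher and 33.8% lower. Fosb fell 14.5-fold (log2 -3.86 ± 0.36), Junb 7.84-fold (-2.97 ± 0.20), Egr2 4.73-fold (-2.24 ± 0.45), Fos 4.04-fold (-2.02 ± 0.11) and Egr1 3.86-fold (-1.95 ± 0.13), with adjusted p between 5.07e-09 and 0.000678. Ier2 (-1.25), Fosl2 (-1.21) and Jun (-0.32) were lower too. Without 4HBP replicate 3 in proliferation medium, the log2 fold change of Egr2 was -1.31 (adjusted p = 6.74e-05). Arc rose 6.76-fold (2.76 ± 0.21), and Jund was 1.24-fold higher (0.31 ± 0.07, adjusted p = 0.00162). All 10 were also called with each library left out and under every other alternative run, apart from 8 at the study's own thresholds, which add a minimum fold. Gm11175, which overlaps Jund on the other strand, had 0 to 4 counts in proliferation and 49 to 72 counts in differentiation medium with 4HBP, against 1598 to 2340 counts of Jund.

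**Figure D5:**
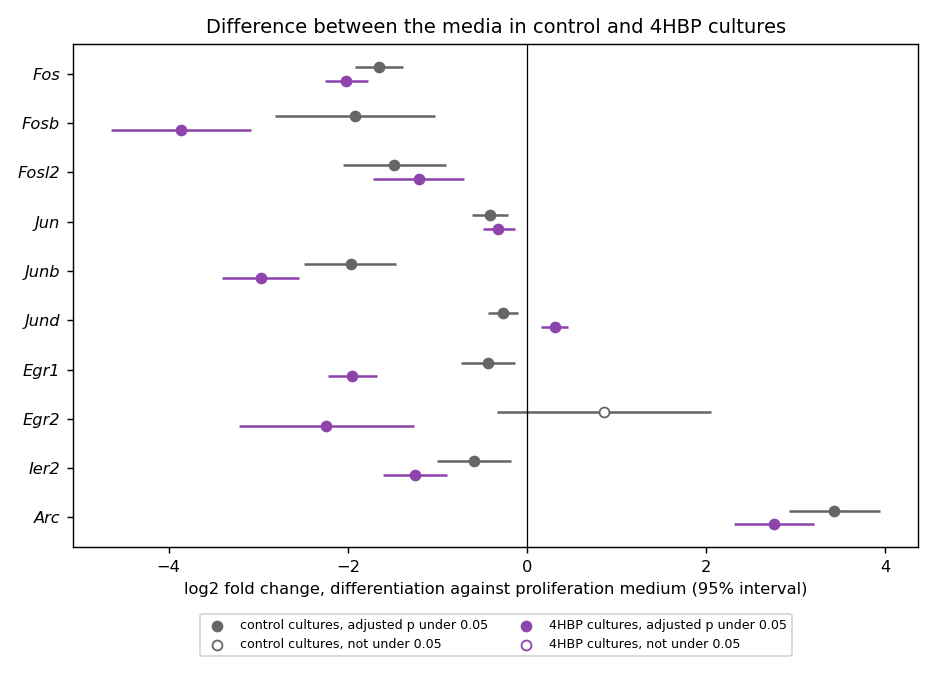
Log2 fold change of each member between differentiation and proliferation medium, with its 95% interval (lines), in control cultures (grey) and in cultures with 4HBP (purple); filled points have an adjusted p under 0.05. Arc lies at 3.43 and 2.76 and the Fos genes and Junb lie between -1.21 and -3.86, whereas Jund is at -0.27 in control cultures and 0.31 with 4HBP.

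Counts of calls in the lists are given beside the shares of all genes called between the media. These shares were 30.8% higher and 30.6% lower in control cultures, and 33.3% higher and 33.8% lower with 4HBP. In control cultures, 13 of the 36 other immediate early genes were higher in differentiation medium, led by Ccn2 (log2 5.55), Gpr3 (2.47), a receptor gene, and Ccn1 (2.32), and 5 were lower, led by Ier3 (-2.62), Klf4 (-1.25) and Klf10 (-0.94). With 4HBP the counts were 10 higher, led by Ccn2 (5.28), Sgk1 (2.28) and Rgs2 (2.22). The 15 lower were led by Ier3 (-3.26), Egr3 (-2.42) and Egr4. No fold is given for Egr4, which had at most 3 counts in any differentiation library with 4HBP. Gpr3 had at most 4 counts in any proliferation control library, so that its fold is uncertain. Of 18 upstream genes, 4 were higher and 10 lower in control cultures, with Map2k2 (0.62), Map2k1 (0.30) and, level with each other, Mapk3 and Mapk9 (0.23) the largest rises and Rps6ka1 (-2.49), Rps6ka3 (-0.66) and Elk1 (-0.55) the largest falls. With 4HBP 3 were higher and 10 lower.

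Among 11 AP-1 partners, 3 were higher (Mafk by 1.16, Maff by 0.65 and Mafg by 0.21) and 4 lower, led by Maf (-1.35), Jdp2 (-1.06) and Atf3 (-0.90), in control cultures, and 1 and 6 with 4HBP. Batf and Batf2 were at or under the floor in every library. Of 9 feedback genes, 2 were higher, the phosphatase genes Dusp4 (2.29) and Dusp6 (1.42), and 4 lower, led by Dusp5 (-1.45), the Egr corepressor gene Nab2 (-1.12) and Zfp36l1 (-0.82). The counts with 4HBP were 1 and 6.

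Of 9 AP-1 target genes, 4 were lower in control cultures, among them Timp1 (-4.91) and Cd44 (-2.98), and 1, Hmox1 (0.40), was higher; with 4HBP 5 were lower and 1 higher, or 6 and 0 without 4HBP replicate 3 in proliferation medium. Of 11 neuronal activity genes that are often read together with Arc, 3 were higher (Rgs2 by 1.82, Inhba by 1.48 and Bdnf by 1.08) and 3 lower (Vgf by -4.18, Scg2 by -3.20 and Nptx2 by -1.50), and 3 and 6 with 4HBP. Heat shock genes gave 3 higher (Hspa1a by 2.29, Hspa1b by 0.63, Hspa8 by 0.44) and 1 lower (Hsp90aa1, -0.77), and again 3 and 1 with 4HBP, or 3 and 2 without that replicate.

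Last, the members were compared in how they varied between replicates, as deviations from the 4 group means over the 11 libraries. Since the deviations are largest in proliferation medium, the correlations are descriptions of few libraries. Fosl2 and Jun deviated together most closely (Pearson's r = 0.92), followed by Fos and Egr2 (0.83) and Egr1 and Ier2 (0.75). Junb and Jund went opposite ways (-0.78), as did Fosb and Egr1 (-0.71). Outside the members, the 3 genes most like Fos were Carmil3, Ogt and Firre (0.97 to 0.98), those most like Jun were Prkar1a, Supt6 and Ell (0.97 to 0.98), and those most like Egr1 were Cops5, Nubp1 and Sdhd (0.97), out of all tested genes with a mean of at least 1 TPM.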

How the data were processed

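RNA of hippocampal NSCs was sequenced as 11 stranded poly(A) libraries. The submitters' processing notes name FastQC 0.11.5, cutadapt, Bowtie2 2.2.9 and RSEM 1.3.0 with the mm10 build. The authors deposited expected counts, estimated by RSEM and not normalized, with TPM and FPKM beside them. The FPKM were not used. Expected counts were rounded to whole numbers, and genes were kept by filterByExpr over the groups. CPM are the expected counts scaled to the library total.

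Effects of 4HBP were fitted with edgeR 4.0.16 (TMM, quasi-likelihood test) in the libraries of each medium alone, since the spread differed between media. The difference of the effects and the comparisons of media were fitted in all 11 libraries. These fits share 1 spread per gene, although the biological coefficient of variation was 0.119 in proliferation and 0.0369 in differentiation medium. For the difference, limma voom with weights by medium gave 7 members at an unadjusted p under 0.05, beside 3424 genes. The main fit gave 7 beside 3165 at that threshold. Calls have a Benjamini-Hochberg adjusted p under 0.05. Alternatives used DESeq2 1.42.0, limma 3.58.1, other filters and scalings, a replicate block and each library left out. The scripts were tested on simulated data.

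Gene models came from GENCODE vM21 and promoter windows from RefSeq, both on GRCm38. From each list, up to 3 called genes in each direction with the largest changes are named. Plk2, Zfp36, Klf6 and Nr4a1 complete a count and were named after their values were seen. The members and lists were chosen with earlier results of these data known. The values of 1 gene of the AP-1 target list are not reported here.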

Additional observations from a re-analysis of the deposited data

Results flagged for a closer look

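The effect of 4HBP differed between the media, by the test of the difference in all 11 libraries, for 3 members and 9 genes of the lists. Beside these, 2.01% of all genes were called higher and 2.48% lower. Fits that left out a library called 1 to 4 members, and Egr2 was called in 4 of 11 such fits. The differences, as the log2 effect in proliferation medium minus that in differentiation medium, were 1.51 for Egr1, 3.10 for Egr2 and -0.58 for Jund. Egr3, the fellow Egr gene, differed by 3.05, Bdnf by 1.31, Nr4a1 by 0.86, Plk2 by 0.85 and Klf6 by 0.70. Dusp6, which encodes an ERK phosphatase, differed by 1.53, Mrtfb by 0.53, Hmox1 by 0.86 and Hspa8 by 0.47. Groups of 3 or fewer libraries were too small to test single libraries as outliers. As described above, 4HBP replicate 3 in proliferation medium stood apart, and without it the difference of Egr2 was 2.17.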

How the results depend on the processing

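Of 650 values of the members under the alternatives, 587 kept their direction and their side of the threshold, 37 lost a call, 19 gained one and 7 changed sign. The sign changes were all of values that were not called. They were those of Jun in proliferation medium (-0.08 to 0.10 with a library left out, below 0 without 4HBP replicate 1 at -0.05 and control replicate 1), Fos in differentiation medium (-0.09 to 0.14, below 0 at -0.01 and -0.02 without 4HBP replicates 1 and 2 and at the lowest without control replicate 2), Ier2 there (-0.10 to 0.04, the highest without 4HBP replicate 2) and the difference between media of Fosl2 (-0.52 to 0.02, the highest without proliferation control replicate 3). For 4HBP in proliferation medium, 1037 genes were called, with 1605 by DESeq2, 67 by limma on log2(CPM+1), 2668 with all 11 libraries and 115 to 1277 with a library left out. Members called there numbered 0 by limma and 1 to 7 with a library left out. For 4HBP in differentiation medium, 369 genes were called, with 767 without a filter, 0 by limma (3117 at an unadjusted p under 0.05), 0 with all 11 libraries (644 unadjusted) and 66 to 242 with a library left out. For the difference between media, 3 members were called, with 5 by DESeq2, 6 without a filter, 5 by limma at the study's unadjusted thresholds and 1 to 4 with a library left out. The genes called there numbered 715, with 1078, 1615 and 270 by DESeq2, without a filter and by limma, and 125 to 1100 with a library left out. Between media in control cultures, 9 members were called and 5 at the study's thresholds. The cause of these changes was not tested.

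Same-numbered libraries did not deviate together (correlations of -0.0612 to 0.018). Deviations within groups this small are bound to each other, so these values cannot tell whether same-numbered libraries shared a preparation. With the numbers as a replicate block, 5 members and 559 genes were called for 4HBP in proliferation medium, 0 members and 784 genes in differentiation medium and 4 members and 692 genes for the difference. Fosb in differentiation medium rested on 5 to 18 counts a library, so that a change of its level there was not detectable at this depth unless large.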
